A study of Homo sapiens with 15 samples.

Results

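Genes that build phospholipids and sphingolipids were followed in Caco-2 cells exposed to food emulsifiers. The gene set was a fixed list of 36 symbols that covers the choline and ethanolamine branches, phosphatidylserine, phosphatidylinositol and cardiolipin synthesis, reacylation of lysophospholipids, ceramide synthesis with its ORMDL inhibitors, and the synthesis of sphingomyelin and glucosylceramide. Each symbol matched 1 identifier among the 69215 genes of the count tables. After a filter on low counts 34 of the 36 were tested, and CHKB and LPCAT1 were not.

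Caco-2 is a human colorectal adenocarcinoma line that forms a monolayer with features of small intestinal enterocytes, so 1 cancer-derived line stood for the gut epithelium. The 15 libraries came from monolayers that were left unexposed (control, 5 libraries), exposed to polysorbate 20 (PS20, 5 libraries) or exposed to polysorbate 80 (PS80, 5 libraries), both at 0.05% for 24 h. PS20 and PS80 are nonionic surfactants, polyoxyethylene sorbitan esters whose fatty acid is mainly lauric acid in PS20 and mainly oleic acid in PS80. The labels do not say whether replicates were separate cultures. The p-values therefore weigh differences between groups against the spread between these libraries, which may be technical.

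Phosphatidylcholine and phosphatidylethanolamine, the most abundant phospholipids of animal membranes, are made from choline or ethanolamine in parallel branches: a kinase phosphorylates the base, a cytidylyl transferase activates it, and a phosphotransferase joins it to diacylglycerol. Phosphatidylserine is made by head group exchange, and phosphatidylinositol and cardiolipin are made from CDP-diacylglycerol. Sphingolipid synthesis starts with the condensation of serine and palmitoyl-CoA by serine palmitoyltransferase and leads through ceramide to sphingomyelin and glycosphingolipids. Enterocytes use phosphatidylcholine to coat chylomicrons, and their brush border membrane is rich in glycosphingolipids.

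Depth ran from 4183096 to 13616301 total counts in the control libraries, from 6749086 to 17251564 in those with PS20 and from 6769409 to 42271053 in those with PS80. Of 12 epithelial markers 10 were tested. Among these, VIL1, CDX2, EPCAM, CDH1 and KRT8 had control means of 190 to 4436 CPM (counts scaled to library size). GPA33, not tested, averaged 0.201 CPM in control, and KRT20, also not tested, had 0 counts in every library. KRT20 shares 66.7% of its distinct exon lengths with a gene annotated on a scaffold. No scaffold gene had a count, so the 0 of KRT20 was not read as a level. The summed level of the 12 markers was 10529 to 11905 CPM in control libraries, 8816 to 9486 CPM in PS20 libraries and 10576 to 11272 CPM in PS80 libraries. With PS20, KRT8 (4436 to 2684 CPM), KRT18 (1826 to 1198 CPM) and VIL1 (802 to 657 CPM) fell, whereas CDX2, CDH1, FABP1 and ALPI rose. Of 12 markers for fibroblasts, blood cells and endothelium 5 passed the filter, their sum was 148 to 168, 141 to 162 and 132 to 183 CPM in the same order, and HBB was at 0. Among these, COL1A1 had 96.4 CPM in control, and PDGFRB fell from 29.5 CPM to 14.97 CPM with PS20 and 16.2 CPM with PS80, while PECAM1 rose with PS80 from 8.18 to 12.2 CPM. The share of mitochondrially encoded RNA was 1.497% to 1.91% for control, 2.03% to 2.58% for PS20 and 1.45% to 2.97% for PS80 libraries. In PS20 libraries the epithelial sum lay below and the mitochondrial share above every control library, and the part of either in the PS20 results, and of PECAM1 and PDGFRB in those of PS80, was not tested.

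In unexposed cells the levels per exon length of the tested genes, PTDSS2 left out, spanned 1.23 to 55.2 RPKM. RPKM is CPM divided by the kilobases that all annotated exons of a gene cover together, which can exceed the length of a transcript. The order of genes by RPKM therefore depends on the annotation too. CERS2, a ceramide synthase for very long acyl chains, had the highest level (55.2 ± 3.39 RPKM, mean ± SD, n = 5), followed by the choline kinase CHKA (40.6 ± 0.967 RPKM). Neither overlapped the gene ranked next to it in any control library. The dihydroceramide desaturase DEGS1 (28.5 ± 2.32 RPKM), the phosphatidylserine synthase PTDSS1 (26.0 ± 1.01 RPKM) and the phosphatidylinositol synthase CDIPT (23.6 ± 1.60 RPKM) came next, with ranges that overlapped between neighbours. At the low end were the choline/ethanolamine phosphotransferase CEPT1 (2.17 ± 0.326 RPKM) and the cardiolipin synthase CRLS1 (1.23 ± 0.369 RPKM), of whose exonic bases 61.45% also lie in another gene. With PS20, CHKA averaged 13.8 RPKM and lay below DEGS1, PTDSS1 and CDIPT, and GPCPD1, which frees choline from glycerophosphocholine, averaged 8.04 RPKM against 2.54 RPKM in control. Some low levels were limited by the counting. PTDSS2 shares 52.6% and LPCAT1 73.3% of their distinct exon lengths with a gene annotated on a scaffold, and no scaffold gene had a count in any library, so their counts were not read as levels. LPCAT1, a lysophosphatidylcholine acyltransferase, had 0 to 11 counts per library. CHKB, the second choline kinase, had 0 to 8 counts, and 72.5% of its exonic bases also lie in the readthrough gene CHKB-CPT1B, where shared reads are not assigned.

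**Figure D1:**
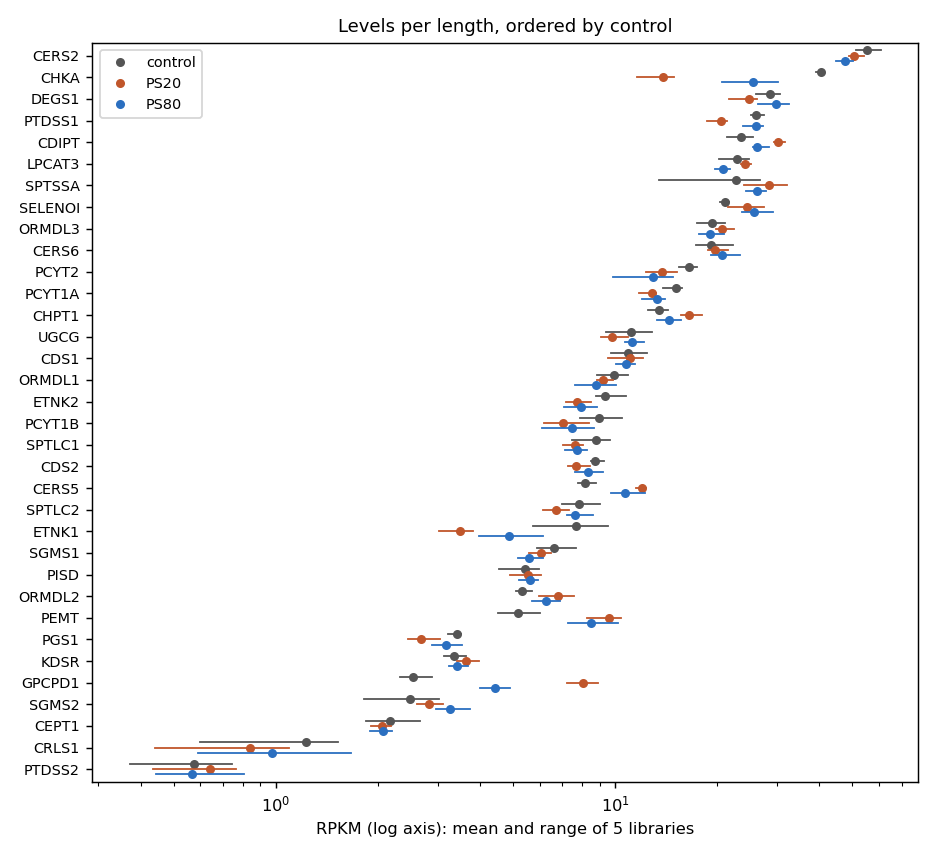
Level per exon length of the 34 tested genes, in RPKM on a log axis, ordered by the control mean. Points are means and lines the range of the 5 libraries of control (grey), PS20 (orange) and PS80 (blue). CHKA fell from 40.6 to 13.8 RPKM and GPCPD1 rose from 2.54 to 8.04 RPKM with PS20, while the ranges of many other genes overlap. PTDSS2 is drawn but was not read as a level.

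With PS20, 20 of the 34 genes passed the test, 7 higher and 13 lower than control, at an adjusted p threshold of 0.05 by edgeR's quasi-likelihood test. Of all 12769 genes tested, 48.2% passed, 24.3% higher and 23.9% lower, so that calls were common among all genes too. The median log2 fold change of the 34 genes was -0.10 against 0.01 for all genes. With PS80, 15 of the 34 passed, 6 higher and 9 lower, where 33.2% of all genes passed, 17.2% higher and 16.0% lower. The median was -0.03 against 0.00 for all genes. Both comparisons use the same 5 control libraries. In both, PEMT, GPCPD1, SELENOI, CERS5 and ORMDL2 were higher and CHKA, PCYT1A, PCYT1B, ETNK1, ETNK2, PCYT2, SPTLC1 and CERS2 were lower, and none of the 34 genes passed in opposite directions. The share of all genes with such shared calls is not given here, so this overlap is not read as a trait of the 34 genes. The 5 PS20 libraries did not overlap the 5 controls for 6 of the 34 genes on the higher and 8 on the lower side (16.2% and 16.3% of all genes, 32.5% together). For PS80 this held for 6 and 3 genes (10.3% and 9.30% of all genes, 19.6% together). Only CHKA, GPCPD1 and ETNK1 changed by more than 2-fold, all with PS20. In bulk RNA, fewer cells of a type and less RNA per cell cannot be told apart.

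Summed over the 36 genes, control libraries held 2438 to 2568 CPM, PS20 libraries 2306 to 2339 CPM and PS80 libraries 2249 to 2407 CPM. These sums were scaled to the total counts of each library, without the TMM factors used for the other CPM values. The PS20 and PS80 libraries lay below every control library in this sum. Without CHKA the sums were 2278 to 2406, 2247 to 2282 and 2169 to 2290 CPM, and both exposed ranges overlapped that of control.

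**Figure D2:**
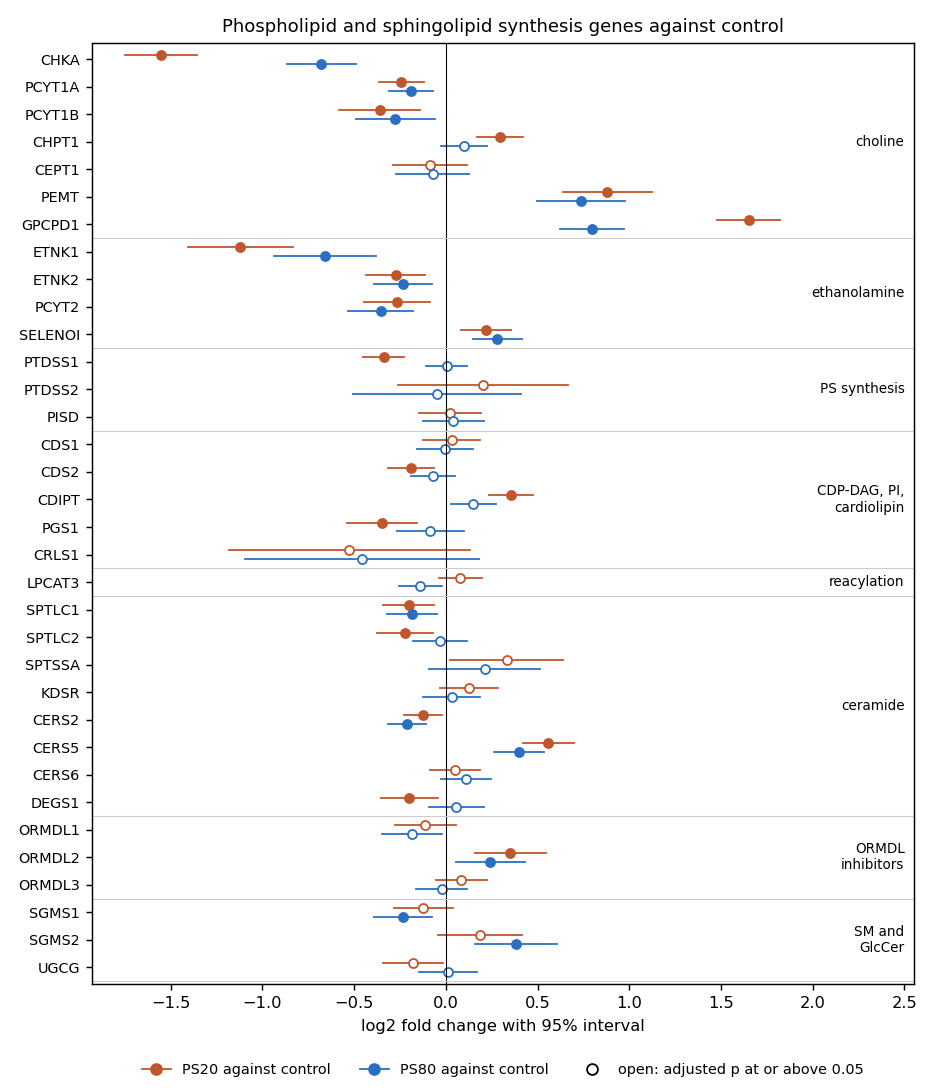
Log2 fold change against control with its 95% interval for the 34 tested genes, grouped by pathway step, with PS20 in orange and PS80 in blue. Filled points passed the test. CHKA and ETNK1 lie farthest to the left and GPCPD1 and PEMT farthest to the right, and most other genes lie within 0.4 of 0.

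The choline branch held the largest changes. CHKA phosphorylates choline, the first step of phosphatidylcholine synthesis, and lies on chromosome 11 from 68052859 to 68121444 (GRCh38). Its level in control replicates 1 to 5 was 159.5, 151, 160.2, 156 and 159.7 CPM. With PS20 it was 56.2, 45.0, 53.3, 55.5 and 58.0 CPM. With PS80 it was 79.9, 81.7, 105, 117 and 109 CPM. The 3 groups did not overlap: every PS20 library lay below every PS80 library, and every PS80 library below every control library. The mean fell from 157 ± 3.75 CPM to 53.6 ± 5.10 CPM with PS20 (SD, n = 5), a log2 fold change of -1.55 ± 0.09 (SE; adjusted p = 5.1e-11, edgeR). With PS80 it fell to 98.6 ± 16.9 CPM, a log2 fold change of -0.68 ± 0.09 (adjusted p = 1.02e-05, edgeR). PS80 replicates 1 and 2 were the lowest PS80 libraries, and the PS80 change was -0.94 within replicates 1 and 2 and -0.52 within replicates 3 to 5. PS80 replicate 2 alone, which was counted with the same program version as the controls, gave -0.94, and of the exonic bases of CHKA 16.3% also belong to another gene.

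GPCPD1 is a phosphodiesterase that breaks glycerophosphocholine, a product of phosphatidylcholine breakdown, and so returns choline. It lies on chromosome 20 from 5544439 to 5611006. Control replicates 1 to 5 had 17.4, 17.9, 19.8, 21.6 and 18.3 CPM. PS20 replicates had 53.8, 66.7, 60.6, 62.6 and 56.8 CPM, and PS80 replicates had 35.4, 32.6, 29.8, 31.0 and 36.7 CPM. Here too no group overlapped another, in the opposite order to CHKA. GPCPD1 rose from 19.0 ± 1.70 to 60.1 ± 5.01 CPM with PS20, 3.14-fold (log2 fold change 1.65 ± 0.08, adjusted p = 1.32e-13, edgeR). The rise to 33.1 ± 2.90 CPM with PS80 was 1.74-fold (0.80 ± 0.08, adjusted p = 1.79e-07, edgeR). Within replicates 1 and 2 the PS20 and PS80 changes were 1.77 and 0.94, and within replicates 3 to 5 they were 1.58 and 0.72.

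PEMT makes phosphatidylcholine by methylating phosphatidylethanolamine, a route best known from the liver, and lies on chromosome 17 from 17505563 to 17591708. Its control values were low, at 8.79, 10.3, 9.31, 8.29 and 7.79 CPM in replicates 1 to 5. With PS20 they were 17.0, 18.0, 14.2, 16.2 and 17.0 CPM, and with PS80 15.6, 17.6, 13.9, 12.5 and 13.5 CPM. All 10 exposed libraries lay above all 5 controls, and the exposed groups overlapped each other. The log2 fold change was 0.88 ± 0.12 with PS20 (adjusted p = 1.33e-06, edgeR) and 0.74 ± 0.12 with PS80 (adjusted p = 3.73e-05, edgeR). Other genes share 16.9% of the exonic bases of PEMT.

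The remaining genes of the branch changed by less than 0.4 on the log2 scale. PCYT1A encodes the choline-phosphate cytidylyl transferase that is generally rate-limiting for phosphatidylcholine. Its mean was 121 ± 6.03 CPM in control, 102 ± 4.80 CPM with PS20 and 106 ± 7.52 CPM with PS80, and it fell by 0.24 (adjusted p = 0.00137, edgeR) and 0.19 (adjusted p = 0.0134, edgeR) on the log2 scale. The PS80 call of PCYT1A ended without a filter on low counts (adjusted p = 0.0805, edgeR), within replicates 1 and 2 (0.0521) and within replicates 3 to 5 (0.0653), and the PS20 call within replicates 1 and 2 (0.0538). The related isoform gene PCYT1B fell by 0.36 with PS20 and by 0.27 with PS80 (adjusted p = 0.0081 and 0.0468, edgeR). The PS80 call of PCYT1B ended without control replicate 3, 4 or 5 or PS80 replicate 1, 2 or 3 (adjusted p up to 0.166, edgeR). CHPT1, the choline phosphotransferase that completes the branch, rose by 0.30 with PS20 (80.8 to 98.9 CPM, adjusted p = 0.000249, edgeR) and had 86.4 CPM with PS80 (0.10, adjusted p = 0.218). CEPT1, which uses both activated bases, had 18.8, 17.9 and 18.0 CPM in control, PS20 and PS80 and passed in neither comparison.

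**Figure D3:**
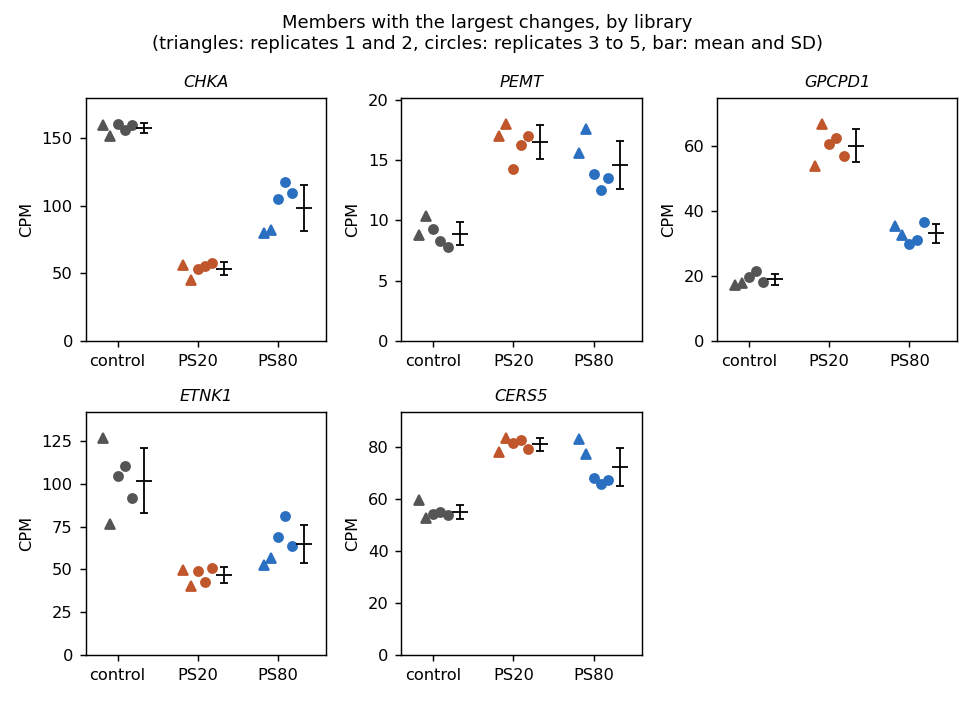
CPM of the 5 genes that passed with a log2 fold change of at least 0.4 in some comparison, by library, with the mean and SD of each group of 5. Triangles are replicates 1 and 2 and circles replicates 3 to 5. CHKA and GPCPD1 separate all 3 groups, PEMT and CERS5 separate exposed from control libraries, and ETNK1 of control replicate 2 (76.4 CPM) lies within the PS80 range.

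In the ethanolamine branch all 4 genes passed in both comparisons, where 48.2% of all genes passed with PS20 and 33.2% with PS80. The kinases ETNK1 and ETNK2 and the cytidylyl transferase PCYT2 were lower, and the phosphotransferase SELENOI was higher. The branch is small, so the sequence before the start of each gene is printed for its 4 enzymes, which did not all move in the same direction. The stretches come from RefSeq's promoter table (GRCh38.p14), read 5′ to 3′ on the gene's strand, and hold no exon of the annotation used for counting. Capitals mark the letters CCAAT or their reverse complement ATTGG, the NF-Y box. The stretches are chr12:22625016-22625074 (plus strand) for ETNK1, chr1:204152045-204152244 (minus strand) for ETNK2, chr17:81911433-81911632 (minus strand) for PCYT2 and chr2:26345921-26346120 (plus strand) for SELENOI. The SELENOI stretch lies inside the gene as the counting annotation draws it, outside its exons.
ETNK1: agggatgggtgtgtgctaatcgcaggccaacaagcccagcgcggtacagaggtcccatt
ETNK2: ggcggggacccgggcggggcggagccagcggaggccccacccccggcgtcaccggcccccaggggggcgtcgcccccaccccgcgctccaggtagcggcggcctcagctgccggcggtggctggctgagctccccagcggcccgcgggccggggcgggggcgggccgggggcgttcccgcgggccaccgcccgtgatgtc
PCYT2: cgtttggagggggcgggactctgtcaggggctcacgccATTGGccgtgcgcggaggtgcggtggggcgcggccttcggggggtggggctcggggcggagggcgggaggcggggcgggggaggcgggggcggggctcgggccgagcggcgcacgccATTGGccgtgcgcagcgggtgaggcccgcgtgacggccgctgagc
SELENOI: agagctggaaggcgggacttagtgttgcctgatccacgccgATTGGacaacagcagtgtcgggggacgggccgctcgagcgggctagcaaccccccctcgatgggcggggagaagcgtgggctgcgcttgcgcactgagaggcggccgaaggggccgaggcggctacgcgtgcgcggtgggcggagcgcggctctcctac
The printed stretch of PCYT2 holds the NF-Y box in 2 places, and its 300-base window holds 1 more before the stretch. That of SELENOI holds it in 1 place, and the stretches of ETNK1 and ETNK2 hold none of the 4 motifs searched. GC content was 59.3% for ETNK1, 85% for ETNK2, 80.5% for PCYT2 and 70.5% for SELENOI. Only 59 bases are shown for ETNK1 and 200 for the others, so these shares describe stretches of unequal length.

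ETNK1 phosphorylates ethanolamine and lies on chromosome 12 from 22625075 to 22690665. In control replicates 1 to 5 it had 127, 76.4, 105, 110.3 and 91.4 CPM. PS20 replicates had 49.8, 40.4, 48.9, 42.6 and 50.8 CPM, and PS80 replicates 52.7, 56.8, 68.7, 81.4 and 63.4 CPM. The PS20 libraries lay below all others, and PS80 replicate 4 lay above control replicate 2. ETNK1 fell from 102 ± 19.0 to 46.5 ± 4.69 CPM with PS20 (log2 fold change -1.12 ± 0.13, adjusted p = 4.96e-06, edgeR) and to 64.6 ± 11.2 CPM with PS80 (-0.66 ± 0.13, adjusted p = 0.00117, edgeR). The PS80 change was -0.86 within replicates 1 and 2 and -0.55 within replicates 3 to 5. Both calls passed in each.

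ETNK2, the second ethanolamine kinase, averaged 42.2 ± 3.77 CPM in control, 34.9 ± 2.28 CPM with PS20 and 35.9 ± 2.93 CPM with PS80. It fell by 0.27 (adjusted p = 0.00546, edgeR) and 0.24 (adjusted p = 0.0194, edgeR) on the log2 scale. The PS80 call of ETNK2 ended without control replicate 2 (-0.17, adjusted p = 0.0894) or PS80 replicate 5 (adjusted p = 0.0623, edgeR). It also ended within replicates 1 and 2 (0.201) and without a filter on low counts (0.0675), and the PS20 call within replicates 3 to 5 (0.0843). With PS80 replicate 2 as the only PS80 library the ETNK2 change was -0.08. Other genes share 23.6% of the exonic bases of ETNK2. PCYT2, generally held to be rate-limiting for this branch, fell by 0.27 with PS20 and by 0.36 with PS80 (adjusted p = 0.0147 and 0.00309, edgeR). Its means were 113 ± 4.97, 94.4 ± 8.41 and 89.0 ± 14.2 CPM, the exposed libraries lay below all controls, and 28.4% of its exonic bases are shared with ANAPC11 and NPB. SELENOI, a selenoprotein that joins ethanolamine to diacylglycerol, rose from 179 ± 5.04 CPM to 208 ± 22.9 CPM with PS20 and 217 ± 18.5 CPM with PS80. The log2 fold changes were 0.22 (adjusted p = 0.00796, edgeR) and 0.28 (adjusted p = 0.00186, edgeR). The PS20 call of SELENOI ended within replicates 3 to 5 (0.11, adjusted p = 0.0568). With PS80 replicate 2 as the only PS80 library its PS80 change was 0.17.

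Among the 3 phosphatidylserine genes, PTDSS1, which exchanges the choline of phosphatidylcholine for serine, fell with PS20 from 159 ± 6.18 to 125 ± 7.02 CPM (log2 fold change -0.34 ± 0.05, adjusted p = 1.39e-05, edgeR). The PS20 libraries (114 to 131 CPM) lay below the controls (154 to 168 CPM). With PS80 the mean was 159 ± 9.40 CPM, with a 95% interval of the log2 change from -0.11 to 0.11. PISD, the mitochondrial decarboxylase that turns phosphatidylserine into phosphatidylethanolamine, had 26.0, 26.6 and 26.9 CPM in control, PS20 and PS80 and passed in neither comparison. PTDSS2, the synthase that uses phosphatidylethanolamine, had 11 to 125 counts per library and passed in neither.

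Of all genes, 48.2% passed with PS20 and 33.2% with PS80 by edgeR. Of the 5 genes that make CDP-diacylglycerol, phosphatidylinositol and cardiolipin, 3 passed with PS20 and 0 with PS80, both by edgeR and by DESeq2. At an unadjusted p under 0.05 by edgeR the PS80 count was 1 of the 5, CDIPT, where 5462 of all 12769 genes lay under it. CDIPT rose with PS20 from 70.8 ± 4.80 to 90.9 ± 2.72 CPM (0.36 ± 0.06, adjusted p = 2.35e-05, edgeR). With PS80 it had 78.7 ± 3.86 CPM (0.15, adjusted p = 0.0513), and in a model that blocked on the replicate number it passed (adjusted p = 0.03, edgeR). An overlapping gene covers 21.8% of its exonic bases. PGS1, which commits CDP-diacylglycerol to phosphatidylglycerol and cardiolipin, fell by 0.35 with PS20 (17.3 to 13.5 CPM, adjusted p = 0.00314, edgeR) and had 16.1 CPM with PS80. CDS2, a CDP-diacylglycerol synthase, fell by 0.19 with PS20 (adjusted p = 0.0111, edgeR), and its sister gene CDS1 had 46.9, 47.6 and 46.5 CPM. Within replicates 1 and 2 the PS20 calls of CDIPT, PGS1 and CDS2 ended (adjusted p = 0.0962, 0.0803 and 0.289, edgeR). CRLS1 had 15 to 131 counts per library. It did not pass with PS20 (-0.53 ± 0.31, adjusted p = 0.176) or PS80 (-0.46 ± 0.30, adjusted p = 0.263). With the block both the PS20 and the PS80 value passed (adjusted p = 0.0136 and 0.0366, edgeR). The PS20 value passed without a filter on low counts (-0.53, adjusted p = 0.0288, edgeR) and with a term for replicates 1 and 2 against 3 to 5 (-0.57, adjusted p = 0.0288, edgeR). The reacylating enzyme LPCAT3, which places polyunsaturated chains on phosphatidylcholine, had 107, 114 and 97.4 CPM in control, PS20 and PS80 and passed in neither comparison. With the block its PS80 value passed (-0.14, adjusted p = 0.02, edgeR), and 66.0% of its exonic bases lie in EMG1 as well.

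Ceramide synthesis changed in both directions. CERS5, a ceramide synthase that uses palmitoyl-CoA, lies on chromosome 12 from 50129289 to 50167533 and had 59.6, 52.6, 54.2, 55.0 and 54.0 CPM in control replicates 1 to 5. PS20 replicates had 77.9, 83.4, 81.7, 82.6 and 79.2 CPM. PS80 replicates had 83.0, 77.1, 68.1, 65.9 and 67.3 CPM. Every exposed library was above every control, and PS80 replicates 1 and 2 were the highest of that group. CERS5 rose from 55.1 ± 2.66 to 81.0 ± 2.34 CPM with PS20 (0.56 ± 0.07, adjusted p = 2.46e-07, edgeR) and to 72.3 ± 7.43 CPM with PS80 (0.40 ± 0.07, adjusted p = 7.23e-05, edgeR). The PS80 change was 0.52 within replicates 1 and 2 and 0.30 within replicates 3 to 5.

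CERS2 went the other way, from 256 ± 15.8 CPM in control to 235 ± 9.55 CPM with PS20 and 221 ± 10.2 CPM with PS80. It fell by 0.13 (adjusted p = 0.0419, edgeR) and 0.21 (adjusted p = 0.00192, edgeR), and 37.2% of its exonic bases belong to other genes too. The PS20 call of CERS2 passed in 11 of 21 alternatives and ended without control replicate 2 or 4 or PS20 replicate 1, 3, 4 or 5 (adjusted p up to 0.142, edgeR). Its PS80 call ended within replicates 1 and 2 (-0.28, adjusted p = 0.0527, edgeR), and PS80 replicate 2 alone gave -0.14. CERS6, the closest relative of CERS5, had 131, 135 and 141 CPM and passed in neither comparison. CERS6 shares 43.8% of its exonic bases with the antisense gene CERS6-AS1. DEGS1, which introduces the double bond of ceramide, fell by 0.20 with PS20 (69.8 to 60.6 CPM, adjusted p = 0.0302, edgeR) and had 72.9 CPM with PS80. That PS20 call ended without control replicate 3, 4 or 5 or PS20 replicate 1 or 2 (adjusted p up to 0.0905, edgeR). KDSR, the reductase of the second step, had 30.3, 32.9 and 30.9 CPM and passed in neither.

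The enzyme that starts the pathway, serine palmitoyltransferase, joins SPTLC1 with SPTLC2 or SPTLC3 and with a small activating subunit, SPTSSA or SPTSSB. SPTLC1 fell by 0.20 with PS20 (93.2 to 80.8 CPM, adjusted p = 0.0159, edgeR) and by 0.19 with PS80 (81.9 CPM, adjusted p = 0.0342, edgeR). The PS20 call of SPTLC1 ended without PS20 replicate 4, and the PS80 call without control replicate 1, 4 or 5 or PS80 replicate 1, 2 or 4 (adjusted p up to 0.0923, edgeR). SPTLC2 fell by 0.22 with PS20 (96.0 to 82.3 CPM, adjusted p = 0.0142, edgeR), a call that ended without control replicate 2 (adjusted p = 0.0642), and had 93.9 CPM with PS80. SPTSSA did not pass with PS20 (60.7 to 75.9 CPM, adjusted p = 0.0698) or PS80 (70.0 CPM, adjusted p = 0.277), though with PS20 it passed under DESeq2 (0.32, adjusted p = 0.0263). Control replicate 2 was the lowest library for SPTSSA, at 35.9 CPM against 62.1 to 71.2 CPM in the other controls.

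SPTLC3 and SPTSSB, the alternative subunits, are not among the 36 genes and were named by the rule for surrounding genes with the largest changes. They had the lowest log2 fold changes with PS20 among all 77 tested pathway genes outside the set. SPTLC3 had 68.4, 70.9, 54.9, 57.2 and 56.2 CPM in control replicates 1 to 5, 21.6, 17.7, 21.3, 19.6 and 22.9 CPM with PS20 and 36.04, 41.5, 35.6, 38.6 and 31.8 CPM with PS80. No group overlapped another, and control replicates 1 and 2 were the highest. SPTLC3 fell by 1.57 on the log2 scale with PS20 (adjusted p = 1.38e-12, edgeR) and by 0.74 with PS80 (adjusted p = 6.39e-07, edgeR). SPTSSB fell by 1.48 with PS20 (56.1 ± 12.0 to 19.8 ± 2.31 CPM, adjusted p = 7.74e-07, edgeR) and by 0.70 with PS80 (34.0 ± 6.32 CPM, adjusted p = 0.00131, edgeR). Per exon length SPTLC3 made up 48.0% ± 0.571 (SD, n = 5) of SPTLC2 and SPTLC3 together in control. It made up 26.5% ± 2.66 with PS20 and 36.04% ± 2.699 with PS80. SPTSSB made up 40.2% ± 7.81, 15.8% ± 2.32 and 25.7% ± 4.72 of SPTSSA and SPTSSB. These shares were formed after the values were seen and are a description with no test. Their size depends on the annotated exon lengths.

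**Figure D4:**
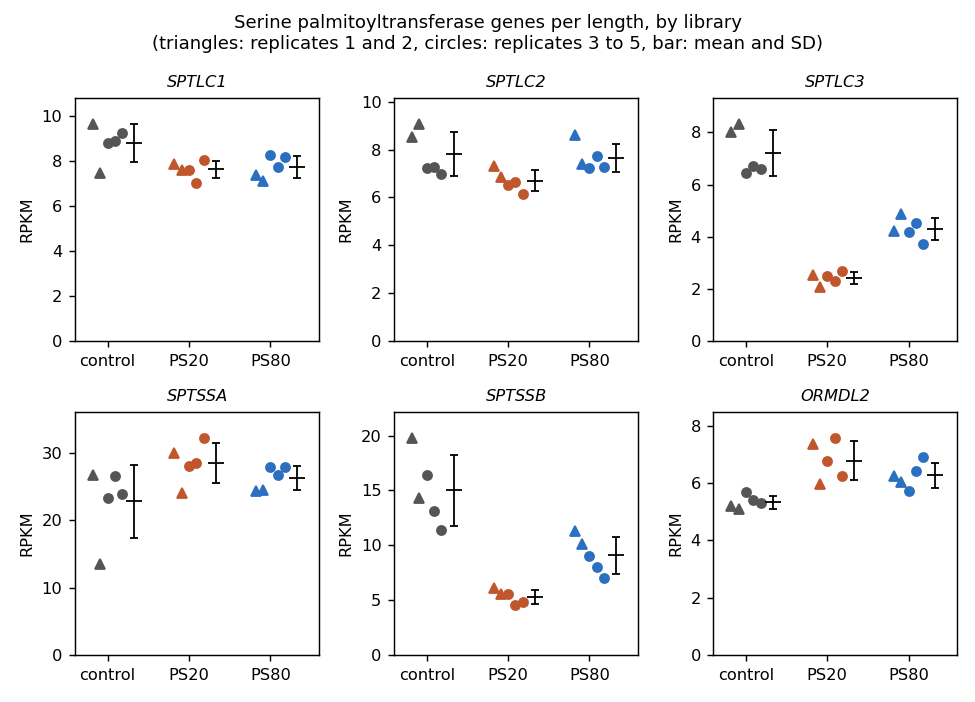
RPKM by library of the serine palmitoyltransferase subunits SPTLC1, SPTLC2, SPTLC3, SPTSSA and SPTSSB and of the inhibitor ORMDL2, with the mean and SD of each group of 5. Triangles are replicates 1 and 2 and circles replicates 3 to 5. The groups of SPTLC3 and SPTSSB separate with control highest and PS20 lowest, while SPTLC1, SPTLC2 and SPTSSA overlap between groups.

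The ORMDL proteins bind and inhibit serine palmitoyltransferase when sphingolipids are plentiful. ORMDL2 rose from 14.3 ± 0.617 to 18.2 ± 1.86 CPM with PS20 (0.35 ± 0.09, adjusted p = 0.00328, edgeR) and to 16.8 ± 1.19 CPM with PS80 (0.24 ± 0.09, adjusted p = 0.0448, edgeR). The exposed libraries (15.4 to 20.4 CPM) lay above all controls (13.7 to 15.3 CPM), though the PS80 call ended under DESeq2 (adjusted p = 0.0566) and without any 1 of the 5 controls or PS80 replicate 1, 4 or 5 (up to 0.14, edgeR). Other genes share 44.0% of the exonic bases of ORMDL2. ORMDL1 had 39.8, 36.9 and 35.2 CPM and passed in neither comparison, and with the block its PS80 value passed (-0.19, adjusted p = 0.0346, edgeR). ORMDL3 had 72.5, 77.4 and 71.7 CPM and passed in neither.

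At the exit of the pathway the sphingomyelin synthases were called in opposite directions with PS80 in the main fit. SGMS2, the isoform found mostly at the plasma membrane, rose from 19.0 ± 3.69 to 25.0 ± 2.59 CPM (0.38 ± 0.11, adjusted p = 0.00793, edgeR). SGMS1, the Golgi isoform, fell from 42.5 ± 4.53 to 35.9 ± 2.64 CPM (-0.23 ± 0.08, adjusted p = 0.0218, edgeR). Both groups of libraries overlapped, and the SGMS1 call ended without control replicate 3 or 4 or PS80 replicate 1 or 2 (adjusted p up to 0.0678, edgeR). The SGMS1 call also ended within replicates 1 and 2 (0.135), within replicates 3 to 5 (0.0862) and without a filter on low counts (0.0693). That of SGMS2 ended within replicates 1 and 2 (0.51, adjusted p = 0.0701, edgeR). With PS80 replicate 2 as the only PS80 library the changes were 0.27 for SGMS2 and -0.34 for SGMS1. With PS20 the means were 21.6 CPM for SGMS2 and 38.7 CPM for SGMS1, and neither passed. UGCG, the glucosylceramide synthase, had 50.7, 44.8 and 51.1 CPM in control, PS20 and PS80 and passed in neither comparison. Without control replicate 2 or 3 or PS20 replicate 1 its PS20 value passed (adjusted p = 0.0111 to 0.0304, edgeR), as it did within replicates 3 to 5 (-0.23, adjusted p = 0.0083) and with the term for replicates 1 and 2 (adjusted p = 0.0388).

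PS80 was compared with PS20 at the same dose and time over all 34 genes, with p-values adjusted over all 12769 genes. Of the 34, 6 were higher and 4 were lower with PS80, where 35.2% of all genes passed, 18.0% higher and 17.2% lower. The libraries did not overlap for 4 genes on each side, against 11.7% and 11.0% of all genes (22.7% together). CHKA was higher with PS80 by 0.87 ± 0.09 (adjusted p = 4.6e-07, edgeR) and GPCPD1 was lower by a log2 fold change of -0.85 ± 0.07 (adjusted p = 6.78e-09, edgeR). For both, the PS80 libraries lay between control and PS20. ETNK1 was higher by 0.46 ± 0.13 (adjusted p = 0.0133, edgeR). That call ended within replicates 1 and 2 (0.29, adjusted p = 0.472, edgeR). With PS80 replicate 2 as the only PS80 library the ETNK1 difference was 0.30.

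PTDSS1, which fell with PS20 and not with PS80, was higher with PS80 by 0.34 ± 0.05 (adjusted p = 2.22e-05, edgeR), as 0.34 within replicates 1 and 2 and 0.34 within replicates 3 to 5. DEGS1 (0.26, adjusted p = 0.00763, edgeR), PGS1 (0.26, adjusted p = 0.0226, edgeR) and SPTLC2 (0.19, adjusted p = 0.0409, edgeR) were also higher with PS80. The PGS1 call ended without PS20 replicate 2 or 3 or PS80 replicate 2 (adjusted p up to 0.0775, edgeR) and the SPTLC2 call without PS20 replicate 2, 3, 4 or 5 or PS80 replicate 1 or 4 (up to 0.127). Lower with PS80 were CHPT1 (-0.20, adjusted p = 0.0104, edgeR), CDIPT (-0.20, adjusted p = 0.00704, edgeR) and LPCAT3 (-0.22, adjusted p = 0.00346, edgeR). Without a filter on low counts the calls of CHPT1 and CDIPT ended (adjusted p = 0.0864 and 0.078, edgeR), and that of CHPT1 also ended within replicates 3 to 5 (-0.13, adjusted p = 0.0699). Within replicates 1 and 2 the calls of CDIPT, DEGS1 and LPCAT3 ended (adjusted p = 0.493, 0.179 and 0.254, edgeR). Those of PGS1 and SPTLC2 ended there too (adjusted p = 0.111 and 0.334, edgeR), and that of PGS1 also within replicates 3 to 5 (0.222). With PS80 replicate 2 as the only PS80 library the differences were -0.08 for CDIPT, 0.13 for DEGS1, -0.15 for LPCAT3 and 0.15 for SPTLC2.

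For the other 24 genes no difference between the emulsifiers passed. PEMT differed by -0.15, with a 95% interval from -0.36 to 0.07, and PCYT2 by -0.09 (-0.27 to 0.09). For SELENOI the interval was -0.07 to 0.19 and for PCYT1A -0.07 to 0.17. CERS5 differed by -0.16 (-0.29 to -0.03, adjusted p = 0.0525) and passed in 6 of 22 alternatives, among them replicates 3 to 5 alone (-0.28, adjusted p = 0.000117, edgeR). UGCG differed by 0.19 (0.03 to 0.35, adjusted p = 0.053) and also passed in 6 of 22 alternatives, among them DESeq2 (adjusted p = 0.0452). SGMS1 (-0.27 to 0.05) and SGMS2 (-0.02 to 0.41) did not pass, so their PS80 changes were not shown to differ from those of PS20. CDS2, called lower with PS20, did not differ by this test either (0.12, adjusted p = 0.119). PS80 replicates 1, 3, 4 and 5 were counted with a later program version than the other 11 libraries, so for those 4 libraries the counting and the exposure cannot be told apart. With PS80 replicate 2 as the only PS80 library, CHKA, GPCPD1 and PTDSS1 differed from PS20 by 0.62, -0.87 and 0.30. A group of 1 library has no spread of its own, so that fit cannot show the variation among PS80 libraries. PS80 replicate 2 was also the deepest library (42271053 total counts) and had the highest mitochondrial share (2.97%).

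**Figure D5:**
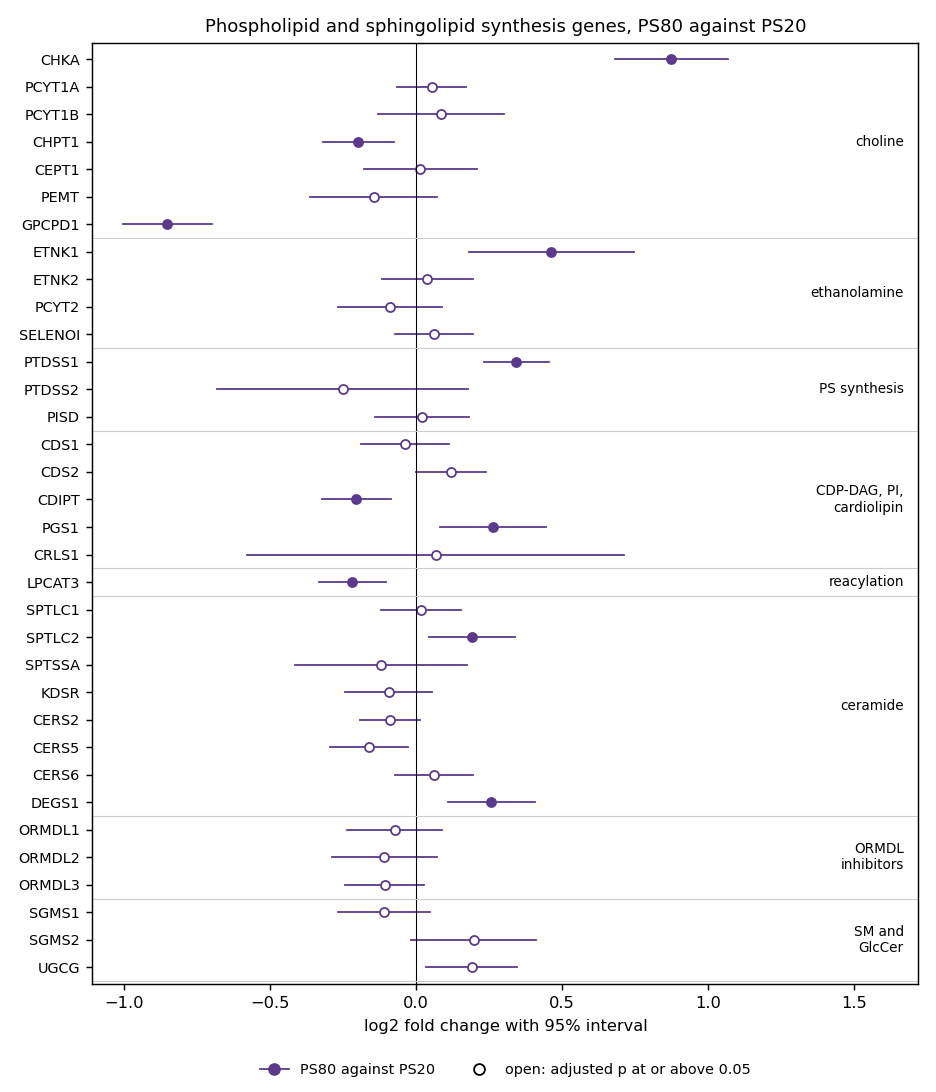
Log2 fold change of PS80 against PS20 with its 95% interval for the 34 tested genes, grouped by pathway step. Filled points passed the test. CHKA (0.87) and GPCPD1 (-0.85) lie farthest from 0, and 24 genes are open.

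Of 90 listed genes around the set 77 were tested. With PS20, 22 rose and 26 fell (62.3% called against 48.2% of all genes), and with PS80, 13 rose and 15 fell (36.4% against 33.2%). Among 11 genes of choline and ethanolamine entry and phosphatidate supply, 3 rose and 3 fell with PS20 (54.5% called). With PS80, 1 rose and 3 fell (36.4%). SLC44A3, a choline transporter-like protein, fell from 31.3 ± 3.50 to 13.9 ± 2.10 CPM with PS20 (-1.16, adjusted p = 3.22e-09, edgeR) and to 23.2 ± 2.32 CPM with PS80 (-0.45, adjusted p = 0.00104, edgeR). Of 6 reacylation genes 2 rose in each comparison (33.3% called in each) and the others did not pass. Of 5 ether lipid genes 1 rose and 2 fell with PS20 (60% called) and 1 rose and 1 fell with PS80 (40%). In the list of 11 phospholipid breakdown genes 5 rose and 3 fell with PS20 (72.7% called). With PS80, 3 rose and 1 fell (36.4%). GDPD1, which cleaves lysophospholipids, was near the detection limit, with 0 to 6 counts per control library, 7 to 27 per PS20 library and 5 to 62 per PS80 library. It passed in both comparisons (adjusted p = 0.00231 and 0.00571, edgeR) with overlapping libraries.

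Of 11 lipid transfer genes, 2 rose and 5 fell with PS20 (63.6% called against 48.2% of all genes) and 2 fell with PS80 (18.2% against 33.2%). Of 9 other serine palmitoyltransferase and ceramide enzymes, 1 rose and 3 fell with PS20 and 4 fell with PS80 (44.4% called in each). Beside SPTLC3 and SPTSSB these included DEGS2, which hydroxylates dihydroceramide to phytoceramide, a form found in the intestine. DEGS2 fell from 7.08 ± 2.07 to 4.74 ± 0.357 CPM with PS20 (-0.60, adjusted p = 0.00967, edgeR) and to 3.27 ± 0.741 CPM with PS80 (-1.08, adjusted p = 8.12e-05, edgeR). The PS20 call of DEGS2 ended without control replicate 2 (adjusted p = 0.0743, edgeR), its highest library. Of 6 genes of complex glycosphingolipids 2 rose and 2 fell with PS20 (66.7% called) and 3 rose with PS80 (50%). B4GALNT1, the ganglioside GM2/GD2 synthase, rose by 0.93 with PS20 and by 1.28 with PS80 from 2.39 CPM (adjusted p = 0.00143 and 7.02e-05, edgeR), and other genes share 27.1% of its exonic bases.

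Sphingolipid breakdown was the largest list. Of its 18 tested genes 6 rose and 8 fell with PS20 (77.8% called against 48.2% of all genes). With PS80, 3 rose and 4 fell (38.9% against 33.2%). SMPD1, the acid sphingomyelinase of the lysosome, fell from 84.8 ± 7.25 CPM to 40.6 ± 5.09 CPM with PS20 (-1.06, adjusted p = 6.39e-10, edgeR) and to 44.2 ± 4.86 CPM with PS80 (-0.94, adjusted p = 2.94e-08, edgeR). Exposed libraries (32.8 to 49.4 CPM) lay below all controls (72.0 to 90.4 CPM). SPHK1, which makes sphingosine-1-phosphate, rose from 1.76 ± 0.171 CPM to 3.66 ± 0.399 CPM with PS20 (1.05, adjusted p = 0.000163, edgeR) and 3.54 ± 0.825 CPM with PS80 (0.98, adjusted p = 0.000522, edgeR). For SMPD1 and SPHK1 the difference between the emulsifiers did not pass (0.12, interval -0.06 to 0.30, and -0.07, interval -0.42 to 0.28).

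Promoter windows of 300 bases, from 250 before to 50 after the start, were in the RefSeq table (GRCh38.p14) for 32 of the 36 genes, and those of CHKA, GPCPD1, PTDSS1 and CERS2 were not used here. Both strands were searched. The letters TCACNCCAC of a sterol-response (SREBP) site were in 0 of the 32 genes, where 1.39% of all 27305 genes hold them. The E-box CACGTG was in 2, PEMT and PTDSS2 (8.77% of all genes), and the ATF4 composite letters TGATGNAA in 2, CRLS1 and PCYT1A (4.46%). The NF-Y box CCAAT was in 14 of 32, against 39.7% of all genes. None of the 4 letter strings contains another. A match is a description of these windows and not a bound site.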

How the data were processed

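RNA of Caco-2 cells was sequenced in 15 libraries of polyadenylated transcripts, according to the labels' protocols. The deposited tables hold whole-number read counts per gene, not normalized. The authors made them with featureCounts 2.0.0 (11 libraries) or 2.0.3 (PS80 replicates 1, 3, 4 and 5), per the file headers, against GENCODE release 42 with a mapping quality minimum of 10, without a strand option. Reads in exons shared by genes are therefore not assigned, and antisense pairs are not separated. Per the submitters' processing notes, reads were trimmed with cutadapt and aligned with STAR 2.7.9a to GRCh38, and DESeq2 1.32.0 was used. Symbols were paired with 90.48% of the 69215 identifiers, without version suffixes. At most 0.00174% of a library's counts lacked a symbol.

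Counts were tested in edgeR 4.0.16 (R 4.3.3): filterByExpr (minimum count 10, minimum total 15), TMM factors (0.978 to 1.02), robust quasi-likelihood fit, 1 term per group over all 15 libraries, Benjamini-Hochberg adjustment over 12769 genes. CPM uses TMM-scaled library sizes, and RPKM divides it by the length in the tables. Errors of levels are SD and of log2 fold changes SE. The method was tested on simulated data.

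The genes and lists were chosen with earlier results of these data known. Genes are given in full where adjusted p was under 0.05 and the log2 fold change at least 0.4 in some comparison. Of the surrounding genes, the 8 with the largest changes among those that passed against control, at a mean of at least 1 CPM, are named. The split into replicates 1 and 2 and 3 to 5 had been seen in these data, and the labels name no batch. Replicate numbers are shared between groups. Across genes, same-numbered PS80 and control libraries deviated together from their group means (r = 0.102 to 0.304, 5 of 5 over 0.1). For same-numbered PS20 libraries r was -0.0264 to 0.248 with control and 0.0741 to 0.29 with PS80. Differently numbered PS80 and control libraries reached r = 0.215, above some same-numbered ones. The main fit holds no term for pairs, so its p-values take no account of them, and the replicate block was run as an alternative.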

Additional observations from a re-analysis of the deposited data

Results flagged for a closer look

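Within groups of 5 libraries, the gap of the highest or lowest library to its neighbour was large for the range in 8 of 126 groups, where chance alone flags about 1 in 20 (6.3 groups). PCYT1A had 93.74 CPM in PS20 replicate 1, against 102.3 to 104.9 CPM in the other PS20 libraries. ETNK2 had 48.75 CPM in control replicate 2, against 39.53 to 42.02 CPM in the other controls, and its PS80 call ended without that library. CDIPT had 85.62 CPM in PS80 replicate 2, against 76.58 to 77.34 CPM in the others of its group. SPTSSA had 35.9 CPM in control replicate 2, against 62.08 to 71.18 CPM. Among the surrounding genes, SLC44A3 had 37.38 CPM in control replicate 2 (others 29.1 to 31.3 CPM), GDPD1 had 1.286 CPM in control replicate 1 (others 0 to 0.3667 CPM), SMPD1 had 72.03 CPM in control replicate 1 (others 86.76 to 90.36 CPM) and SPHK1 had 2.97 CPM in PS20 replicate 2 (others 3.689 to 3.953 CPM). Control replicate 2 appears for 3 of the 8.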

How the results depend on the processing

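Alternatives were DESeq2 1.42.0, other size factors, other filters, only the groups compared, a replicate block, a term for or fits within replicates 1 and 2 and 3 to 5, PS80 replicate 2 alone and each library left out, and, added after the data were seen, edgeR without its robust option. Of 2210 log2 fold changes of the 34 genes under these, 2053 kept their side of the threshold, and 0 changed sign where either value passed. Sign changes between values that did not pass are among the 2053, as for CDS1 with PS20 (0.03 in the main fit, lowest -0.04). Calls that held in all of them were CERS5, CHKA, CHPT1, ETNK1, GPCPD1, PCYT2, PEMT and PTDSS1 with PS20, CERS5, CHKA, ETNK1, GPCPD1, PCYT2 and PEMT with PS80, and CHKA, GPCPD1 and PTDSS1 between the emulsifiers. With replicates 1 and 2 alone, 6 genes were lower with PS20 (13 with all), 3 lower with PS80 (9), 2 higher with PS80 than PS20 (6) and 2 lower (4). This fit has fewer samples. Without a filter 5 were lower with PS80 and 2 lower with PS80 than PS20, and with PS80 replicate 2 alone 2 were lower than PS20. The cause of these last changes was not tested. Leaving out 1 library gave 7 to 8 higher and 11 to 13 lower with PS20, 5 to 6 and 6 to 9 with PS80, and 4 to 7 and 4 to 5 between the emulsifiers. The lowest PS80 count, 6, came without PS80 replicate 1 or control replicate 4, and the lowest count of 4 higher than PS20 without PS20 replicate 2 or 3. The replicate block gave 8 higher and 15 lower with PS20, 7 and 12 with PS80, and 7 and 5 between the emulsifiers. For PS80 against control it added the calls given with CDIPT, CRLS1, LPCAT3 and ORMDL1 and changed no other. With PS20 it added CRLS1 (-0.60, adjusted p = 0.0136, edgeR), SPTSSA (adjusted p = 0.0207) and UGCG (adjusted p = 0.0261), and between the emulsifiers CERS5 (adjusted p = 0.0191) and UGCG (adjusted p = 0.0146). Libraries correlated best with their own number in 4 of 5 cases for PS20 and control, 3 of 5 for PS80 and control and 3 of 5 for PS80 and PS20. CRLS1, PTDSS2, GDPD1, CHKB and LPCAT1 had few counts, and the part of depth, shared exons and scaffold copies in this was not tested.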
